A study of Mus musculus with 9 samples.

Results

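Cathepsins are proteases of the lysosome, and cystatins are proteins that inhibit the cysteine cathepsins. The 10 genes described here are the aspartic protease Ctsd, the cysteine cathepsins Ctsb, Ctsl, Ctss, Ctsh and Ctsz, the asparaginyl endopeptidase Lgmn (legumain), and the cystatins Cst3, Cst6 and Cstb. They were chosen by name out of 54456 gene names in the count table, with the levels and group differences of these same libraries already known, and all 10 were among the 18051 genes that passed a filter on low counts. The RNA came from mouse mammary epithelial cells of wild-type (WT) genotype that were purified by flow cytometry and aggregated. Basal-only, luminal-only and mixed aggregates (50% mixture) were each represented by 3 libraries. All had been placed in 80% Matrigel near FGF10-loaded heparin sulfate beads (100 to 150 µm across, pre-soaked at 100 µg/mL), and were collected after 56 h by the treatment label or 55 h by the sample titles. FGF10 is a growth factor that attracts migrating mammary epithelium, and no aggregate without it is among these samples. Whether libraries of 1 group stem from different animals or cultures is not stated in the labels, so errors and p-values cover the spread between these libraries, which may be technical.

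Most cathepsins are made as inactive precursors, carried to the lysosome by mannose 6-phosphate receptors or sortilin, and activated at acid pH, where they degrade proteins delivered by endocytosis and autophagy. Some are also secreted and cleave extracellular matrix. Cystatin C (Cst3) and cystatin M (Cst6) are secreted inhibitors, cystatin B (Cstb) acts inside the cell, and cystatin M also inhibits legumain. The transcription factor TFEB and its relatives bind E-box sequences of the CACGTG type upstream of many lysosomal genes. In the mammary gland lysosomal proteases are best known from involution, when the milk-producing epithelium is removed after weaning.

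The 250 bases upstream of the RefSeq start sites (build GRCm38.p6) are shown for Ctsd, the most abundant protease of the group, and for Cst3, the inhibitor that stood farthest above both pure kinds in the mixed aggregates. Capitals mark CACGTG, which reads the same on both strands. The Ctsd window is chr7:142387828-142388077 and the Cst3 window is chr2:148875513-148875762, both on the minus strand.
Ctsd: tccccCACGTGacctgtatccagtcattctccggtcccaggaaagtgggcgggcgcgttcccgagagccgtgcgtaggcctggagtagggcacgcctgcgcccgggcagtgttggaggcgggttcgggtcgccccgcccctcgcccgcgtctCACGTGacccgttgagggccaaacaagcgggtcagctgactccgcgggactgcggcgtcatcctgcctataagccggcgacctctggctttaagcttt
Cst3: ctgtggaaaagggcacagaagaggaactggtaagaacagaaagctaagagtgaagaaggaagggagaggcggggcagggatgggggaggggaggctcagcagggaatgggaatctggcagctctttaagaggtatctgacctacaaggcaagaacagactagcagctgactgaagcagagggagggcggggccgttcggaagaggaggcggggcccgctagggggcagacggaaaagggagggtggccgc
Ctsd held CACGTG at 245 and at 98 bases before the start, and the second lay within the longer palindrome TCACGTGA, which contains CACGTG. The Cst3 window did not hold these letters. Windows were matched for 6 of the 10 genes, and CACGTG was found in those of Ctsd, Ctsl and 1 of the 2 Lgmn windows. It was in 6.02% of all 32851 windows of the same length, and TCACGTGA was in 0.785%. The nearest GENCODE M21 transcript start on this build lay 8 bases from the RefSeq start for Ctsd and 61 for Cst3, but 214 for Ctsl and 721 for the Lgmn window with the match. The matches describe letters in a window and were not tested as binding sites.

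The libraries held 15585324 to 19164405 counts, and 3 counts, the limit that a count of 0 allows, corresponded to 0.152 to 0.187 CPM (a gene's counts relative to the size of its library, with TMM scaling). Reads carried no molecular identifiers, so this limit covers counting error only. By the prefixes of its column names, the table divides into 3 series of codes that do not follow the groups. Basal 2 and all 3 mixed libraries carry codes of series A. Series B covers basal 1, luminal 1 and basal 3, and luminal 2 and 3 form series C. What the codes stand for is not given in the sources used here. When series enters the fit as a term, luminal is compared with basal inside series B and mixed with basal inside series A, and these are called within-series values. Series B holds 1 luminal and series A 1 basal library, so each comparison has an arm of 1 library, which is assumed to vary like the others. Mixed and luminal libraries share no series, so for that pair series and group cannot be told apart except through basal. The 9 basal markers summed to 10179 to 11664 CPM in basal, 1439.9 to 2855 in luminal and 6461 to 7688 in mixed libraries, and the 11 luminal markers to 3649 to 4069.6, 8030.3 to 11033 and 9898 to 11507 CPM. The basal marker sum thus lay between the pure kinds in the mixed libraries. The luminal marker sum was within or above the pure luminal range there. In luminal libraries Krt14 alone gave 1285 to 2554 CPM of the basal marker sum, and no other basal marker exceeded 142 CPM in them. Of the luminal marker sum, Krt19 alone gave 3997 to 5014 CPM in mixed and 1069 to 1637 CPM in luminal libraries. At an adjusted p under 0.05 (edgeR), 2 of the 11 were called higher in mixed than in luminal aggregates (15.2% of all tested genes). Another 3 were called lower (14.2%) and 6 were not called. Mean CPM in mixed against luminal aggregates was 4537 against 1336 for Krt19 and 499.8 against 244 for Kit. It was 1478 against 2901 for Krt18, 83.3 against 229.5 for Cldn4 and 163 against 242 for Muc1.

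**Figure D1:**
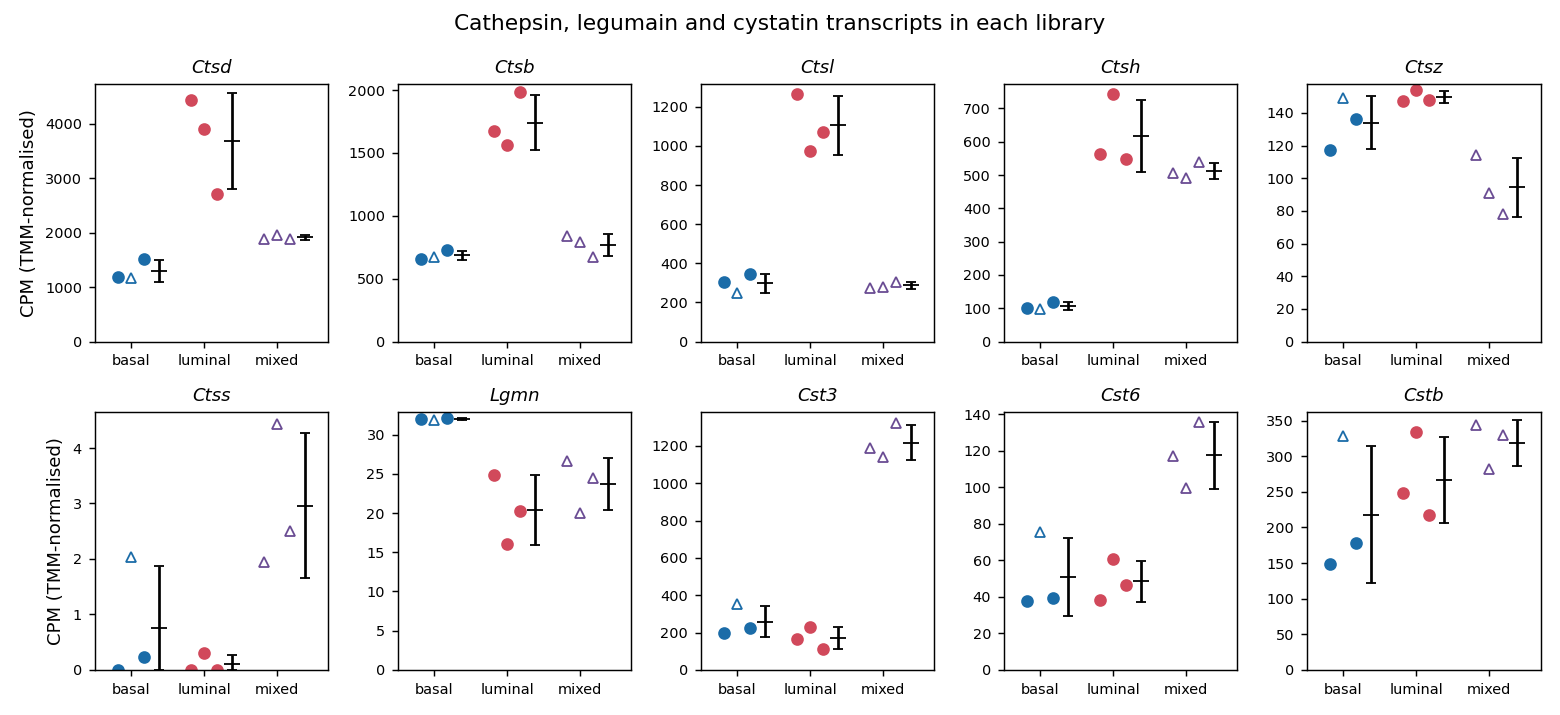
TMM-normalised CPM (linear axes from 0) of the 10 genes in each of the 9 libraries, with group mean ± SD in black. Open triangles are the 4 libraries of code series A and filled circles the 5 others; Cst3 stood at 1140 to 1322 CPM in the mixed libraries and at or below 352 CPM in the 6 pure ones.

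Luminal aggregates carried more transcript of 4 cathepsins than basal aggregates, namely Ctsd, Ctsb, Ctsl and Ctsh, and less of Lgmn. In the mixed aggregates Ctsh lay near the luminal level, Ctsd between the pure kinds, and Ctsb and Ctsl at the basal level. The cystatins Cst3 and Cst6 overlapped between the pure kinds and were higher in every mixed library than in any pure one. These values were in view when the genes were listed, so they are given as a description without a test. In bulk RNA, fewer cells of a type and less RNA per cell cannot be told apart.

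Ctsd (cathepsin D, an aspartic endopeptidase, mm39 chr7:141929648-141941775, minus strand) had 1184, 1173 and 1524 CPM in basal libraries 1 to 3, 4437, 3899 and 2707 CPM in luminal libraries and 1889, 1958 and 1892 CPM in mixed libraries. All luminal libraries were above all mixed ones, and all mixed ones above all basal ones, with the luminal libraries the most spread. The luminal mean was 2.85 times the basal mean (log2 difference 1.51 ± 0.21, SE, n = 3 per group). The mixed mean was 1.48 times the basal mean and 0.52 times the luminal mean (log2 differences 0.56 ± 0.21 and -0.94 ± 0.21). Of its exon bases in the table, 34.4% are also covered by Gm49369, so reads there may have gone to either gene or to neither.

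Ctsb (cathepsin B, a cysteine protease with endopeptidase and carboxypeptidase activity, mm39 chr14:63359911-63383372, plus strand) had 655, 673 and 726 CPM in basal, 1674, 1562 and 1984 CPM in luminal and 837, 794 and 669 CPM in mixed libraries. The luminal libraries stood apart from the other 6, while basal and mixed libraries overlapped. The log2 difference was 1.35 ± 0.17 for luminal minus basal, 0.16 ± 0.17 for mixed minus basal and -1.18 ± 0.17 for mixed minus luminal. Fdft1 covers 12.8% of its exon bases.

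Ctsl (cathepsin L, a cysteine endopeptidase, mm39 chr13:64507151-64518704, minus strand) had 302, 249 and 345 CPM in basal, 1267, 973 and 1073 CPM in luminal and 273, 281 and 306 CPM in mixed libraries. The basal and mixed ranges overlapped, and the lowest luminal library was far above both. The luminal mean was 3.7 times the basal mean and 3.86 times the mixed mean (log2 differences 1.89 ± 0.18 for luminal minus basal and -1.95 ± 0.18 for mixed minus luminal), and mixed minus basal was -0.06 ± 0.18. Gm47123 and Gm49230 cover 26.8% of its exon bases.

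Ctsh (cathepsin H, mainly an aminopeptidase, mm39 chr9:89936205-89958142, plus strand) had 102, 99.3 and 119.5 CPM in basal, 563, 742 and 547 CPM in luminal and 506, 492 and 539 CPM in mixed libraries. Basal libraries were the low ones, and the highest mixed library fell just short of the lowest luminal one. The luminal mean was 5.77 times and the mixed mean 4.78 times the basal mean (log2 differences 2.53 ± 0.18 and 2.26 ± 0.18). Mixed minus luminal was -0.27 ± 0.17, and 0.02 through the within-series values.

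Ctsz (cathepsin Z, a carboxypeptidase, mm39 chr2:174269286-174280832, minus strand) had 117, 149 and 136 CPM in basal, 147, 154 and 148 CPM in luminal and 114, 91.2 and 78.3 CPM in mixed libraries. The pure kinds overlapped, and all 3 mixed libraries lay below all 6 pure ones, the highest mixed library only just. Mixed minus basal was -0.51 ± 0.17 and mixed minus luminal -0.67 ± 0.17 on the log2 scale. Of all tested genes, 7.2% lay below all pure libraries in this way, and Ctsz was the 1 of the 10 to do so.

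Lgmn (legumain, which cleaves after asparagine and processes cathepsin precursors, mm39 chr12:102360343-102406072, minus strand) had 32, 31.9 and 32.1 CPM in basal, 24.9, 16 and 20.3 CPM in luminal and 26.6, 20 and 24.5 CPM in mixed libraries. Every basal library was above every other library, and luminal and mixed libraries overlapped. Luminal minus basal was -0.65 ± 0.21, mixed minus basal -0.43 ± 0.21 and mixed minus luminal 0.22 ± 0.21 on the log2 scale. Within series the first of these was -0.36.

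Ctss (cathepsin S, an endopeptidase of antigen-presenting cells, mm39 chr3:95434097-95463714, plus strand) was near the limit of detection. It had 0, 37 and 4 counts in basal, 0, 5 and 0 counts in luminal and 34, 72 and 46 counts in mixed libraries. The 4 libraries with more than 5 counts were the 4 of series A. In CPM they stood at 2.04 in basal 2 and at 1.95, 4.43 and 2.51 in the mixed libraries, so basal 2 lay inside the mixed range. The pooled log2 difference of mixed minus basal was 1.96 ± 1.38, and within series A it was 0.54.

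Cst3 (cystatin C, a secreted inhibitor of cysteine cathepsins, mm39 chr2:148713642-148717612, minus strand) had 197, 352 and 222 CPM in basal, 168, 229 and 110 CPM in luminal and 1189, 1140 and 1322 CPM in mixed libraries. The pure kinds overlapped, and the mixed libraries stood well clear of both and close to one another. The mixed mean was 4.73 times the basal mean and 7.2 times the luminal mean (log2 differences 2.24 ± 0.29 and 2.85 ± 0.30). The luminal mean was 0.658 times the basal mean (-0.60 ± 0.28), a difference that was not past the threshold but was so with library size scaling, without a filter and without luminal 2 (-0.72, -0.57 and -0.89). An equal average of the basal and luminal means gives 213 CPM, and the mixed mean of 1217 CPM was 5.71 times that (5.35 to 6.2 times in single mixed libraries). Basal 2 was the highest pure library, and within series A, where it is the only basal library, mixed minus basal was 1.79, and through the within-series values mixed minus luminal was 2.11.

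Cst6 (cystatin M, an inhibitor of legumain and of cathepsins, mm39 chr19:5394733-5399602, minus strand) had 37.9, 75.3 and 39.1 CPM in basal, 38.4, 60.5 and 46.4 CPM in luminal and 117, 99.6 and 136 CPM in mixed libraries. As for Cst3, the pure kinds overlapped and the mixed libraries were above all of them, with basal 2 the nearest. Mixed minus basal was 1.21 ± 0.28 and mixed minus luminal 1.28 ± 0.28 on the log2 scale. Within series the values were 0.64 and 0.65. Cst3 and Cst6 were the 2 of the 10 with all mixed libraries above all 6 pure ones, against 5.02% of all tested genes. Together with Ctss they were also the 3 of the 10 in which all 4 libraries of series A were above the 5 others, against 12.2% of all tested genes.

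Cstb (cystatin B, an inhibitor inside the cell, mm39 chr10:78261503-78263456, plus strand) had 148, 328 and 178 CPM in basal, 248, 334 and 218 CPM in luminal and 344, 282 and 329 CPM in mixed libraries. All 3 kinds overlapped. Basal 2 stood near the mixed libraries and apart from basal 1 and 3. The pooled mixed minus basal value was 0.55 ± 0.28, and within series A it was -0.04.

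**Figure D2:**
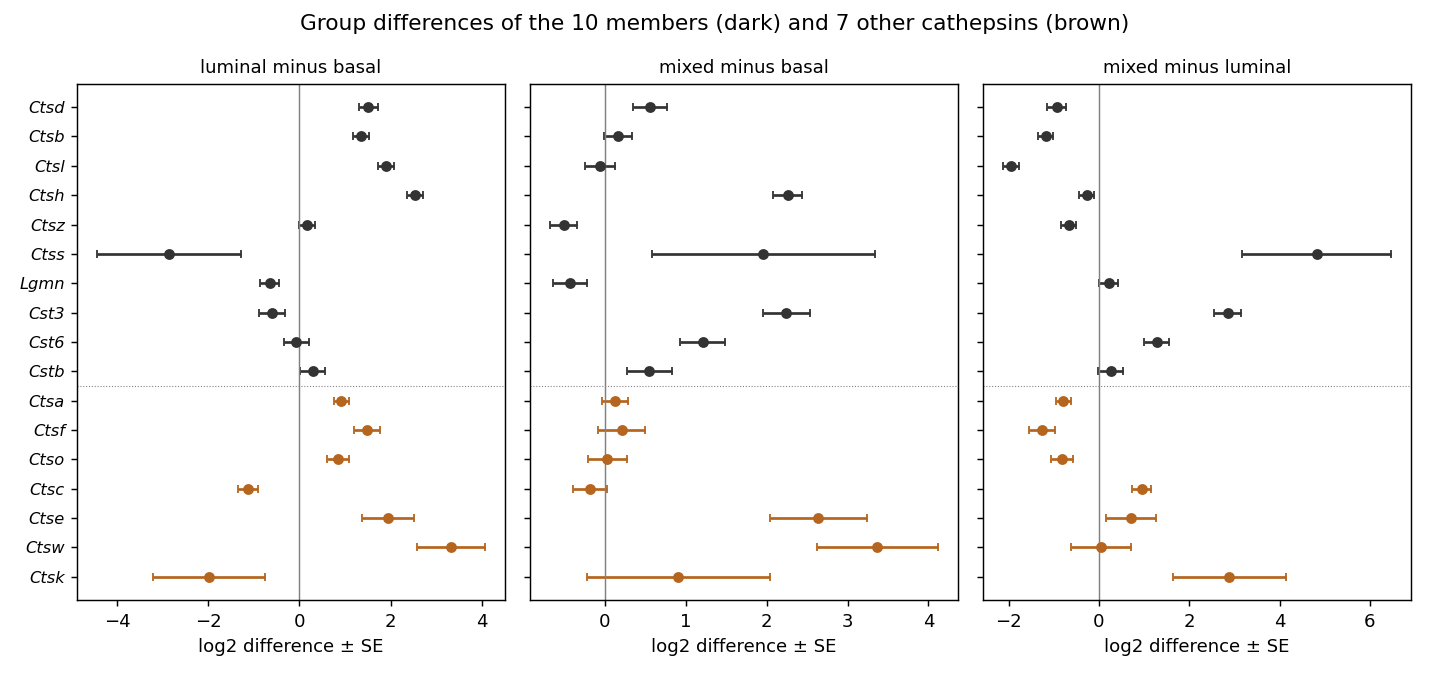
Log2 difference ± SE (all 9 libraries in 1 fit) for the 3 comparisons, for the 10 genes (dark) and for the 7 other cathepsins that passed the filter (brown). Ctsd, Ctsb, Ctsl and Ctsh lie to the right of 0 in luminal minus basal, and Cst3 and Cst6 in both comparisons of mixed aggregates; the wide bars of Ctss come from its few counts.

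Of the 10 genes, 4 were higher and 1 was lower in luminal than in basal aggregates at an adjusted p under 0.05, where 27.1% of all tested genes differed (12.8% higher and 14.4% lower). For mixed against basal, 3 were higher (Cst3, Cst6 and Ctsh) and 0 lower by edgeR, where 13.7% of all tested genes differed (6.39% higher and 7.33% lower). DESeq2 called 4 of the 10 higher and 1 lower there, with 1664 of all tested genes higher and 2340 lower. For mixed against luminal, 3 were higher (Cst3, Cst6 and Ctss) and 4 lower (Ctsd, Ctsb, Ctsl and Ctsz) by edgeR, where 29.4% differed (15.2% higher and 14.2% lower). The 3 comparisons share libraries, and these counts were known when the genes were listed. With the series as a term, 4, 2 and 1 of the 10 passed, where 2507, 853 and 491 of all 18051 tested genes did. Those of the 10 were Ctsb, Ctsd, Ctsl and Ctsh, then Cst3 and Ctsh, then Ctsl. With 1 library left out, Lgmn was no longer past the threshold for luminal against basal without any 1 basal library, luminal 2, luminal 3 or mixed 1, and Cst6 for mixed against basal without basal 1, basal 3 or mixed 3. For mixed against luminal the same held for Ctsz without mixed 3 and for Ctss without basal 3, luminal 1, luminal 3 or any 1 mixed library.

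Levels of different genes were compared per kilobase of summed exon length, which understates genes whose annotated exons exceed their main transcript. In basal aggregates Ctsd (550.2 CPM per kb), Cstb (362) and Cst3 (203) led, followed by Ctsb (113), Ctsz (93), Ctsl (46.1), Ctsh (23.8), Lgmn (13.8), Cst6 (12.4) and Ctss (0.557). Single basal libraries overlapped between Ctsd and Cstb (499 to 648 and 246 to 544), between Cstb and Cst3 (156 to 278) and between Lgmn and Cst6, and the other neighbours in this order did not overlap. In luminal aggregates Ctsd stood at 1566 CPM per kb, ahead of Cstb (442), Ctsb (288), Ctsl (170.2), Ctsh (137), Cst3 (134), Ctsz (104), Cst6 (11.8), Lgmn (8.78) and Ctss (0.0728). There Ctsl (149.9 to 195), Ctsh (122 to 165), Cst3 (86.9 to 181) and Ctsz (102 to 107) each overlapped with the next, as did Cst6 and Lgmn. In mixed aggregates Cst3, at 961 CPM per kb, stood first and Ctsd, at 814, second, and the lowest Cst3 library (900.5) was above the highest Ctsd library (833). The 34.4% of Ctsd exon bases that another gene shares may have lost reads, in which case its level per kilobase is understated and this order is uncertain. Cstb (528), Ctsb (127), Ctsh (114), Ctsz (65.5), Ctsl (44.1), Cst6 (28.8), Lgmn (10.2) and Ctss (2.18) followed, of which Ctsb and Ctsh overlapped (111 to 138 and 109 to 119.7).

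The 7 proteases summed to 841 ± 100.5 (SD, n = 3) CPM per kb in basal, 2274 ± 365 in luminal and 1176 ± 23.6 in mixed aggregates. The 3 cystatins summed to 577 ± 230.4, 588 ± 148 and 1518 ± 117 CPM per kb. The ratio of the protease sum to the cystatin sum was 1.89, 0.939 and 1.99 in basal, 4.69, 3.13 and 4.08 in luminal and 0.772, 0.856 and 0.708 in mixed libraries. Luminal libraries had the highest ratios and mixed libraries the lowest, and the 3 ranges did not overlap. Basal 2, of the same series as the mixed libraries, was the basal library closest to them. These are sums of transcripts and give no measure of protein or of protease activity. The protease sum includes Ctsd, an aspartic protease, which is not among the cysteine cathepsins that cystatins inhibit. Ctsd made up 499 to 648 CPM per kb of that sum in basal, 1152 to 1887 in luminal and 803 to 833 in mixed libraries.

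Genes can be placed between the pure kinds by the position of the mixed mean on a scale from the basal mean (0%) to the luminal mean (100%), in CPM. For Ctsh it was 79.3% (75.4 to 84.6% in single mixed libraries), for Ctsd 25.9% (24.9 to 27.8%), for Ctsb 7.77% (-1.47 to 14.4%) and for Ctsl -1.55% (-3.26 to 0.835%). The 4 genes thus covered most of the scale, and only the ranges of Ctsb and Ctsl over the mixed libraries overlapped. The median over the 1516 genes at least 2-fold and significantly higher in luminal than in basal aggregates was 33.9%, with quartiles of 11.8 and 65.3%, and 23.1% of them lay at or below 10%. For 35 other lysosomal genes and cathepsins of that kind the median was 17.2% (quartiles 5.73 and 38.9%).

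**Figure D3:**
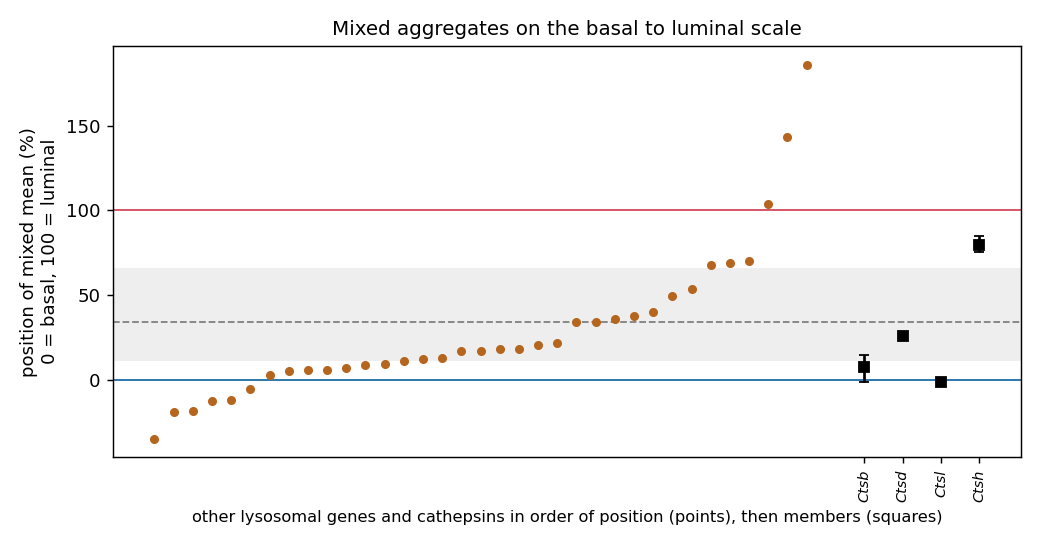
Position of the mixed mean (%) on the scale from basal (0, blue line) to luminal (100, red line) for 35 other lysosomal genes and cathepsins (brown points) and for Ctsb, Ctsd, Ctsl and Ctsh (black squares, bars from the lowest to the highest mixed library). The grey band holds the middle 50% of 1516 genes higher in luminal aggregates and the dashed line their median of 33.9%; Ctsh lies above the band and Ctsb and Ctsl below it.

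Of 18 other cathepsins, 7 passed the filter. At an adjusted p under 0.05 (edgeR), 5 of these were called higher in luminal against basal aggregates, 1 was called lower and 1 (Ctsk) was not called, where 12.8% of all tested genes were called higher and 14.4% lower. Ctsa, a serine carboxypeptidase that protects lysosomal glycosidases, had 162, 177 and 165 CPM in basal, 337, 285 and 333 CPM in luminal and 202, 190.1 and 160.2 CPM in mixed libraries. Its luminal libraries stood above all others (luminal minus basal 0.92 ± 0.16, edgeR's quasi-likelihood test with Benjamini-Hochberg adjustment, adjusted p = 0.001). Ctsf, another cysteine protease, rose by 1.48 ± 0.29 (adjusted p = 0.0026 in edgeR), from 17.1 to 28.9 CPM in basal to 60.3 to 80.5 CPM in luminal libraries. Both were lower in mixed than in luminal aggregates (Ctsa -0.79, adjusted p = 0.0042, and Ctsf -1.27, adjusted p = 0.0086, both by edgeR). Ctsc, the dipeptidyl peptidase that activates granule proteases, went the other way, at 88.9 to 92.3 CPM in basal, 33.6 to 49.6 CPM in luminal and 59.4 to 100 CPM in mixed libraries. It was lower in luminal than in basal aggregates (-1.13 ± 0.21, adjusted p = 0.0019) and higher in mixed than in luminal aggregates (0.95 ± 0.21, adjusted p = 0.0077, edgeR). Of these calls, those of Ctsa and Ctsf between luminal and basal were also past the threshold with the series as a term, where luminal 1 is the only luminal library, while that of Ctsc (adjusted p = 0.11) and those between mixed and luminal (0.13, 0.64 and 0.61 for Ctsa, Ctsf and Ctsc) did not.

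Lower-expressed cathepsins were less certain. Ctse, an aspartic protease, had 1.26 to 3.47 CPM in basal, 5.04 to 11.5 CPM in luminal and 4.52 to 21.9 CPM in mixed libraries, and passed against basal in luminal (1.94 ± 0.58, adjusted p = 0.029) and in mixed aggregates (2.64 ± 0.6, adjusted p = 0.015, edgeR). Ctsw, best known from cytotoxic lymphocytes, had 0.165 to 1.07 CPM in basal, 2.93 to 7.42 CPM in luminal and 3.38 to 7.52 CPM in mixed libraries (3.32 ± 0.75, adjusted p = 0.006, and 3.37 ± 0.75, adjusted p = 0.014, edgeR). Ctso was higher in luminal than in basal (0.85 ± 0.24, adjusted p = 0.022) and lower in mixed than in luminal aggregates (-0.82 ± 0.24, adjusted p = 0.027, edgeR). Ctsk, the collagen-degrading cathepsin of osteoclasts, stayed at or below 1.85 CPM and passed in no comparison (adjusted p = 0.28, 0.63 and 0.1 in edgeR). With 1 library left out, the luminal minus basal calls ended for Ctse without basal 1, basal 3, luminal 1 or luminal 3 and for Ctso without basal 3, luminal 1 or luminal 2. The mixed minus basal calls ended for Ctse without basal 1, basal 3 or mixed 1 and for Ctsw without basal 3, and the mixed minus luminal call of Ctso without any 1 luminal library, mixed 1 or mixed 3. With the series as a term, of the calls of Ctse, Ctsw and Ctso only the luminal minus basal call of Ctse passed (adjusted p = 0.041, edgeR).

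Of 17 other cystatins and cathepsin inhibitors only Cst10 passed the filter, and 11 of the 35 other cathepsins and cystatins had 0 counts in every library. Cst10, a cystatin named for cartilage, was at 0 counts in all 5 libraries of series B and C. It stood at 14.4 CPM in basal 2 and at 14.4, 14.5 and 23.5 CPM in the mixed libraries. The mixed mean of 17.5 CPM was at least 93-fold higher than the limit of 3 counts in a luminal library (0.187 CPM). It divided the libraries by series rather than by kind of aggregate, the same division as for Ctss.

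The wider lysosomal pathway was counted in the same way. Of 90 tested genes for other cathepsins and cystatins, hydrolases, membrane and pump proteins, sorting and the TFEB family, 50 were called higher in luminal against basal aggregates, 3 were called lower and 37 were not called at an adjusted p under 0.05 (edgeR), where 12.8 and 14.4% of all tested genes were called. The median log2 difference was 0.71, against -0.02 over all tested genes. For mixed against luminal 54 were called lower and 2 higher (14.2 and 15.2% of all tested genes), with a median of -0.71 against -0.05. For mixed against basal 11 were called higher and 2 lower (6.39 and 7.33% of all tested genes), with a median of 0.01 against -0.07. With the series as a term 36 were called higher and 1 lower in luminal against basal aggregates, where 1280 and 1227 of all 18051 tested genes were. For mixed against luminal that fit called 0 higher and 5 lower, and 370 and 121 of all tested genes. For mixed against basal it called 5 higher and 2 lower, and 529 and 324 of all tested genes. The mixed minus basal count moved from 13 to 30 without basal 2 and to 7 without basal 3, and the mixed minus luminal count from 56 to 37 without luminal 1.

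Among hydrolases 18 of 33 were called higher and 0 lower in luminal against basal aggregates, by the same test and against the same 12.8 and 14.4% of all tested genes, and 15 were not called. Lipa, the lysosomal acid lipase, had 22.4, 28.5 and 21.2 CPM in basal, 641, 939 and 1456 CPM in luminal and 209, 201 and 264 CPM in mixed libraries. The 3 kinds did not overlap, and the log2 difference of luminal minus basal was 5.40 ± 0.32 (edgeR, adjusted p = 4.5e-07). Between mixed and luminal aggregates 26 of the 33 were called lower (14.2% of all tested genes), among them Lipa (-2.17 ± 0.28, adjusted p = 0.00027, edgeR). Between mixed and basal aggregates 3 of the 33 were called higher and 1 lower (6.39 and 7.33% of all tested genes). Both counts are thus near the background. Among the higher ones were Lipa (3.22 ± 0.29, adjusted p = 6.5e-05) and Ids, a sulfatase (1.63 ± 0.32, adjusted p = 0.0073). The lower one was the dipeptidyl peptidase Dpp7 (-1.69 ± 0.44, adjusted p = 0.026, all by edgeR). The calls of Ids and Dpp7 did not pass with the series as a term (adjusted p = 0.14 and 0.47), and that of Dpp7 also ended without basal 1, basal 3, mixed 1 or mixed 3.

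Among membrane and pump genes 17 of 26 were called higher and 0 lower in luminal against basal aggregates (12.8 and 14.4% of all tested genes), 9 were not called, and the median log2 difference was 1.05. Ctns, the cystine exporter of the lysosome, had means of 43.8 ± 11.5 CPM in basal, 420.3 ± 109 CPM in luminal and 246 ± 79.6 CPM in mixed aggregates (SD, n = 3), and passed against basal in both others (3.26 ± 0.32, adjusted p = 1.6e-05, and 2.49 ± 0.31, adjusted p = 0.00045, edgeR). Atp6v1e1, a subunit of the proton pump, behaved likewise (2.14 ± 0.18, adjusted p = 5.7e-06, and 1.42 ± 0.18, adjusted p = 0.00045, edgeR). Mcoln1, a lysosomal calcium channel, and Clcn7, a chloride exchanger, were lower in mixed than in luminal aggregates (-1.69 ± 0.27, adjusted p = 0.0014, and -1.25 ± 0.28, adjusted p = 0.0079, edgeR). Neither of these passed with the series as a term (adjusted p = 0.55 and 0.7).

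Among genes for sorting and cofactors 5 of 15 were called higher and 2 lower in luminal against basal aggregates, where 12.8 and 14.4% of all tested genes were called, so the lower count is near the background. Sort1, the receptor sortilin, and Psap, the precursor of the saposins, were both higher by 1.41 ± 0.19 (adjusted p = 0.00019 and 0.00017, edgeR). Psap stood at 639 to 744 CPM in basal, 1478 to 2247 CPM in luminal and 694 to 820.3 CPM in mixed libraries, so its mixed libraries lay at the basal level, as those of Ctsb and Ctsl did. Gga2, an adaptor for mannose 6-phosphate receptors, was lower than in basal aggregates in luminal (-1.75 ± 0.31, adjusted p = 0.0015) and in mixed aggregates (-2.39 ± 0.32, adjusted p = 0.00081, edgeR). Gnptab, which makes the mannose 6-phosphate tag, was lower in luminal than in basal aggregates (-0.93 ± 0.26, adjusted p = 0.021, edgeR), a call that ended without basal 1, luminal 1 or luminal 2 and with the series as a term. Between mixed and luminal aggregates Psap (-1.28 ± 0.19, adjusted p = 0.00067) and Gm2a, the GM2 ganglioside activator (-0.85 ± 0.17, adjusted p = 0.0049, edgeR), were lower, and neither passed with the series as a term (adjusted p = 0.18 and 0.33). Sort1 was higher in mixed than in basal aggregates (1.09 ± 0.19, adjusted p = 0.0038, edgeR).

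In the TFEB family, Tfeb had 26.5, 19.1 and 21.9 CPM in basal, 47.8, 53.4 and 53.1 CPM in luminal and 28.1, 35.4 and 9.2 CPM in mixed libraries. Its luminal libraries were above all others (luminal minus basal 1.19 ± 0.37, adjusted p = 0.035, edgeR), a call that ended when any 1 of luminal 1, 2 or 3, basal 2 or basal 3 was left out, with the series as a term (0.98, adjusted p = 0.35) and with library size scaling (adjusted p = 0.075). Tfeb was lower in mixed than in luminal aggregates at the edge of the threshold (-1.09 ± 0.37, adjusted p = 0.048, edgeR), and not with the series as a term (adjusted p = 0.86), with library size scaling, with only the 2 groups compared, or without basal 3, mixed 1 or any 1 luminal library. Tfe3 stood at 55.8 to 70.5, 64 to 89.9 and 43.7 to 57.7 CPM and passed only between mixed and luminal aggregates (-0.60 ± 0.18, adjusted p = 0.032, edgeR, and 0.87 with the series as a term), a call that ended without basal 3, luminal 1, luminal 3, mixed 2 or mixed 3. Mitf was at 1.62 to 6.45 CPM and passed in no comparison, and Tfec had 0 counts in every library. Flcn, which restrains TFEB and TFE3, was higher in luminal than in basal (1.65 ± 0.29, adjusted p = 0.0013) and lower in mixed than in luminal aggregates (-2.39 ± 0.3, adjusted p = 0.00025, edgeR, and 0.25 with the series as a term). Rragd, a GTPase that brings TFEB to the lysosome, had the same directions at lower levels, with 4.46 ± 0.144 CPM in basal, 18.2 ± 10.2 CPM in luminal and 4.85 ± 3.54 CPM in mixed aggregates (SD, n = 3), and log2 differences of 2.03 ± 0.55 and -1.91 ± 0.55 (adjusted p = 0.017 and 0.024, edgeR). With 1 library left out, its luminal minus basal call ended without basal 3 or luminal 3, and its mixed minus luminal call without luminal 1, luminal 3, mixed 1 or mixed 2. Neither passed with the series as a term (adjusted p = 0.15 and 0.57). Fnip1, a partner of Flcn, was higher in mixed than in basal aggregates (0.66 ± 0.18, adjusted p = 0.035, edgeR), a call that ended when any 1 of 7 libraries was left out (each except basal 2 and mixed 2), with the series as a term (adjusted p = 0.12), without a filter (0.056), with library size scaling (0.12) and with only the 2 groups compared (0.079).

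**Figure D4:**
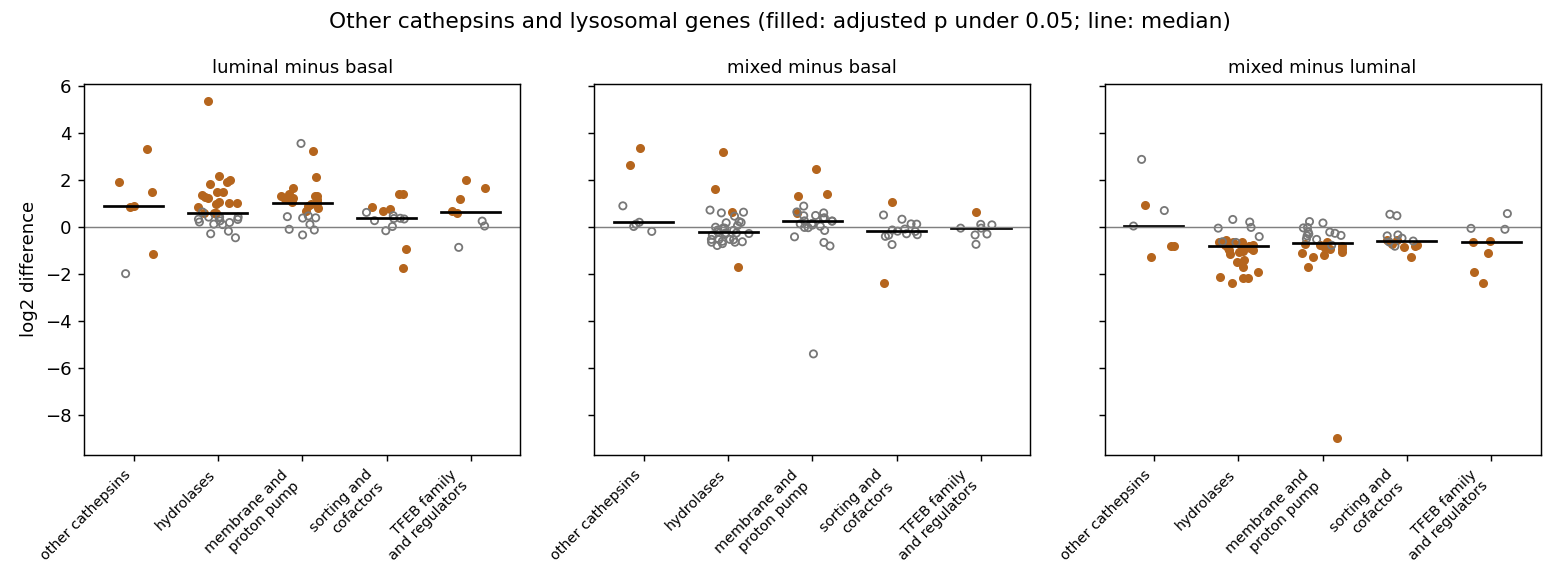
Log2 differences of the tested genes in 5 lists for the 3 comparisons (filled, adjusted p under 0.05 by edgeR; open, not; line, median). Most genes lie above 0 in luminal minus basal and below 0 in mixed minus luminal; the lowest point of the membrane list, at -8.98, is Atp6v0d2, with 0 counts in all 3 mixed libraries, where the fitted value is no bound.

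Markers of other cell types were read beside these genes, because macrophages are rich in Ctss, Ctsd, Ctsb and Cst3. The 18 macrophage markers summed to 6.09, 73.6 and 5.46 CPM in basal, 30.1, 26.8 and 57.2 CPM in luminal and 70, 96.2 and 98.9 CPM in mixed libraries. The 4 libraries of series A thus had the highest sums, as they had the highest Ctss, Cst3 and Cst6. At 0 counts were 9, 0 and 9 of the 18 in basal, 10, 9 and 8 in luminal and 0, 1 and 2 in mixed libraries. Ptprc, the common leukocyte antigen, did not exceed 0.744 CPM, and Adgre1, a defining macrophage receptor, did not exceed 0.871 CPM and had 0 counts in mixed 2 and mixed 3. In series A, Lyz2 stood at 8.3 to 33.7 CPM and Cd74 at 26.3 to 36.4 CPM, against at most 0.152 and 1.88 CPM elsewhere. In luminal libraries most of the sum was Cd68, a lysosomal membrane protein, at 20.9 to 50.2 CPM. The 7 fibroblast markers summed to 119.6 to 153 CPM in basal, 6.77 to 11 CPM in luminal and 48.4 to 71.1 CPM in mixed libraries, with Fbln1 alone at 90.5 to 131 CPM of the basal sums and no other fibroblast marker above 7.41 CPM in a basal library. The 5 endothelial markers summed to 0.178 to 7.08 CPM in any library. The part of these cells, or of the code series, in the levels of the 10 genes was not tested.

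Over the 9 libraries the log2 CPM of Ctsb, Ctsd and Ctsl went together (Pearson r = 0.87 for Ctsb with Ctsd, 0.96 for Ctsb with Ctsl and 0.88 for Ctsd with Ctsl), as did those of Cst3, Cst6 and Ctss (0.93, 0.9 and 0.9). These are descriptions over libraries that share groups and series. Among tested genes of at least 10 CPM, the patterns most like those of the proteases were Cyb561 and Wdr45 for Ctsd (r = 0.987 and 0.979), Hivep3 and Sh3bp4 for Ctsb (both 0.992), Vegfa and Scd1 for Ctsl (0.99 and 0.989), Mal and Crabp2 for Ctsh (0.997 and 0.996), Necap2 and Tsr3 for Ctsz (0.984 and 0.967), Uba2 and Hmgcll1 for Lgmn (0.995 and 0.967) and Llph-ps2 and Gm9892 for Ctss (0.984 and 0.98). For the cystatins they were Cox7c and mt-Nd6 for Cst3 (0.994 and 0.991), Mcts1 and Ptbp3 for Cst6 (0.991 and 0.989) and Bcap31 and Lamtor2 for Cstb (0.988 and 0.987). Scd1, a fatty acid desaturase, had means of 656, 6501 and 561 CPM in basal, luminal and mixed aggregates, the same order as Ctsl at 299, 1104 and 286 CPM.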

How the data were processed

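RNA was measured in 9 libraries, made with a stranded mRNA preparation after small-input RNA extraction, per the labels' protocols. Per the submitters' processing notes the tools were Trim Galore, Subread and featureCounts with build mm39, and per the file headers featureCounts 2.0.1 made the deposited counts, which are raw whole numbers summed over the exons of each gene name. The annotation release is not given in the sources used here. The 10 genes and all lists were chosen with earlier results of these data known. Counts were fitted with edgeR 4.0.16 in R 4.3.3: filterByExpr by group, TMM scaling, the 3 groups as a factor over all 9 libraries (6 residual degrees of freedom), the robust quasi-likelihood test (two-sided) and Benjamini-Hochberg adjustment over 18051 genes at a threshold of 0.05. The standard error is the log2 difference divided by the square root of F. CPM carry no pseudocount, and correlations were taken on log2 CPM (prior count 2). Named beyond the 10 were every tested cathepsin and cystatin, Tfeb, Tfe3, Mitf and Tfec, and the 2 most alike genes per member. Per list and comparison, up to 2 called genes at each extreme with at least 5 CPM were also named. Cell-type markers were given only by sums, by defining or highest genes, and by the luminal markers called between mixed and luminal aggregates. The markers named singly and Atp6v0d2 were chosen after their values were seen. Of the genes this rule names, 2 are not reported here. Title numbers did not pair libraries (r of group-centred values from -0.17 to 0.2), and no 2 libraries of a group agreed within sampling noise (chi-square per gene of 11.5 to 104). The sample descriptions number some libraries differently from the titles, and pairing by those numbers was not tested. The fits were tested on simulated counts for luminal minus basal, with 100 genes changed 2-fold and 100 changed 4-fold. Of these, 42% and 94% were recovered, and 5.56% of the calls were false. A gene that was not called may thus still differ by 2-fold. The simulated libraries held no effect of series, and far fewer genes were changed than were called in the data. The 5.56% therefore does not cover differences that follow the series. Alternatives were other scalings, DESeq2 1.42.0, no filter, a block for the title number, the column-name series as a term (4 residual degrees of freedom), only the 2 groups compared, each library left out, and basal 2 and mixed 3 left out together.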

Additional observations from a re-analysis of the deposited data

How the results depend on the processing

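Of 509 values of the 10 genes under the alternatives, 496 moved by less than the spread between libraries, and none of those past the threshold changed sign. That spread combines the SDs of both groups, and leaving out 1 library of 3 can hardly move a mean that far. A library of the third group enters neither mean. Many of these values could thus hardly have moved, and their number does not measure how firm the results are. Apart from fits with 1 library left out, the counts that moved by over 1.5 times were these. For mixed against basal, all genes called went from 2477 to 3903 without a filter, 853 with the series term, 5129 without basal 2 and mixed 3, and 4004 by DESeq2; the other cathepsins, cystatins and lysosomal genes went from 13 to 25, 7, 26 and 25 in the same order; and the 10 genes went from 3 to 5 without basal 2 and mixed 3 and to 5 by DESeq2. With the series term, all genes called for luminal against basal went from 4899 to 2507, and for mixed against luminal all genes went from 5309 to 491, the pathway genes from 56 to 5 and the 10 genes from 7 to 1. That fit has fewer residual degrees of freedom and reaches mixed against luminal only through basal.

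Leaving out 1 library at a time gave 3678 to 5393, 963 to 5120 and 2967 to 6774 called genes for luminal against basal, mixed against basal and mixed against luminal, 44 to 54, 7 to 30 and 37 to 61 pathway genes, and 4 to 5, 2 to 4 and 5 to 7 of the 10. Both extremes for mixed against basal came from basal libraries, 5120 without basal 2 and 963 without basal 3. These counts moved by over 1.5 times, as did 1176 without basal 1. So did the pathway genes for that pair, to 30 without basal 2 and to 7 without basal 3. For mixed against luminal, all genes moved that far without luminal 1 (3243) or luminal 3 (2967), and pathway genes without luminal 1 (37). The title number as replicate block changed no count by over 1.5 times (5, 3 and 7 of the 10, and 52, 14 and 54 pathway genes), and the libraries share only a number.

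Changes of sign occurred only in differences that had not passed the threshold. For mixed minus basal, Ctsa was -0.02, Ctso -0.11 and Tfeb -0.06 by library size, Ctso was -0.09 with the series term, and Ctsk was -0.03 without basal 2 and mixed 3. Leaving out 1 library gave -0.23 to 0.21 for Ctso, -0.01 to 0.46 for Ctsf, -0.29 to 0.48 for Tfeb and -0.55 to 0.09 for Mitf. For mixed minus luminal, Ctse was -0.84 and Mitf -1.03 with the series term, and Ctsw was -0.33 without basal 2 and mixed 3 and -0.33 to 0.44 with 1 library left out. Mitf was 0.18 for luminal minus basal with the series term. Among the 10 genes, with the series term Cstb went to -0.04 for mixed minus basal and to -0.65 for mixed minus luminal, Lgmn to -0.07 and Ctsh to 0.02 for mixed minus luminal, and Ctsl to 0.20 for mixed minus basal (0.04 without basal 3), and Cst6 for luminal minus basal went to 0.32 without basal 2, alone or with mixed 3, and to 0.08 without luminal 1. Scaling by library size moved the median of all genes to -0.17 for luminal minus basal and to -0.22 for mixed minus basal, and the share of higher genes among calls from 47 to 35% and from 46.5 to 33.6%. Ctss and Ctsk rest on few counts. Cst10 had 235 to 432 counts in the 4 libraries of series A and 0 in the 5 others. The fitted differences of these genes are imprecise.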
